A study of Homo sapiens with 18 samples.

Results

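The genes described here encode the proteins of the mitochondrial ribosome and of the machinery that brings proteins into mitochondria. The set was chosen with earlier results of these data known. Its members were matched by symbol, as every gene whose symbol begins with MRPL or MRPS and a number (with an optional letter from A to C), TIMM and a number, or TOMM and a number. This gave 102 of the 14079 gene symbols in the count table. Of these, 49 carry large subunit (MRPL) symbols and 29 small subunit (MRPS) symbols. Another 24 are import genes, of which 3 encode receptors of the translocase of the outer membrane (TOM), 5 its channel proteins and small subunits, 7 the TIM23 translocase of the inner membrane and its motor, 3 the TIM22 translocase, 5 the small TIM chaperones of the intermembrane space and 1 TOMM34.

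The study treated cell lines with inhibitors of BET proteins, the bromodomain readers of acetylated histones, and counted transcript starts by CAGE, in which a short tag is read from the 5′ cap of each RNA. There were 6 groups of 3 libraries: AML3 (OCI-AML3) cells given JQ1, given OTX015 or given vehicle (DMSO), and AML2 (OCI-AML2) cells given JQ1, OTX015 or vehicle. Both are human acute myeloid leukaemia lines, described in the labels as myeloid leukaemia cells; OCI-AML3 is known for a cytoplasmic NPM1 mutation that OCI-AML2 lacks, although no label states a genotype. Both compounds, JQ1 and OTX015 (also named birabresib), are thienotriazolodiazepines that occupy the acetyl-lysine pocket, JQ1 as a tert-butyl ester and OTX015 as a hydroxyphenyl amide. The labels give neither dose nor duration, and each line is 1 model of its kind. They do not say that the 3 libraries of a group came from separate cultures, so p-values measure the spread between these libraries, which may be technical.

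Mitochondrial ribosomes translate the few proteins encoded by mitochondrial DNA, all of them subunits of the respiratory chain and ATP synthase, whereas every mitoribosomal protein is encoded in the nucleus and has to be imported. Precursors are recognised by the TOM receptors, pass through the TOMM40 channel and are handed to TIM23, which takes proteins with a presequence into the matrix, or by the small TIM chaperones to TIM22, which inserts carrier proteins into the inner membrane. Myeloid leukaemia cells have been reported to depend on mitochondrial translation more than normal blood progenitors do.

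The following RefSeq promoter windows, each from 250 bases before to 50 bases after the annotated start, show the sequence behind results described further on (build GRCh38.p14, 5′ to 3′ on the gene's strand). TIMM23 (chr10:45972239-45972538, plus strand) and TIMM23B (chr10:49941803-49942102, plus strand) are near-identical copies whose tags moved in opposite directions. MRPL11 (chr11:66438799-66439098, minus strand) was the lowest member relative to vehicle in 3 of the 4 drug comparisons, and TIMM10 (chr11:57530705-57531004, minus strand) was among the lowest of the import genes. In the first pair the capitals mark the bases at which the aligned windows differ, and in TIMM10 they mark CCGGAAGT, the ETS factor motif, and CACGTG, the E-box bound by MYC and related factors.
TIMM23: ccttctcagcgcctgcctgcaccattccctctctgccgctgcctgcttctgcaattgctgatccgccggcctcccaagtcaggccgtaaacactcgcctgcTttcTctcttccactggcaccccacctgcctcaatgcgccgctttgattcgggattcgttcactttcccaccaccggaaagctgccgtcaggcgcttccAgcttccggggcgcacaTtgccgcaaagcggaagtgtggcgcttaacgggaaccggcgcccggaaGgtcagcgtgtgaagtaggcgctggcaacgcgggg
TIMM23B: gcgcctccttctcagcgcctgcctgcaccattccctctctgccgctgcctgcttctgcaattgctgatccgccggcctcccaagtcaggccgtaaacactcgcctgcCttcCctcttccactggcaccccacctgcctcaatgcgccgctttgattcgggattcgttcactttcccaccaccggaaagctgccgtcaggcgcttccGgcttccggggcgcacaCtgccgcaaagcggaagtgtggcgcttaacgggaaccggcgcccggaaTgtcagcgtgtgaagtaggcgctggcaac
MRPL11: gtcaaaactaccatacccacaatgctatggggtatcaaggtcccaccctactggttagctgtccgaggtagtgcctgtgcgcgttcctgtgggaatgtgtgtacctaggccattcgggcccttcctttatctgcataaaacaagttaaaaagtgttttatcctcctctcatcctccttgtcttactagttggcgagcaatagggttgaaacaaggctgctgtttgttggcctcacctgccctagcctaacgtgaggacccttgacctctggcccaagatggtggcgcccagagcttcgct
TIMM10: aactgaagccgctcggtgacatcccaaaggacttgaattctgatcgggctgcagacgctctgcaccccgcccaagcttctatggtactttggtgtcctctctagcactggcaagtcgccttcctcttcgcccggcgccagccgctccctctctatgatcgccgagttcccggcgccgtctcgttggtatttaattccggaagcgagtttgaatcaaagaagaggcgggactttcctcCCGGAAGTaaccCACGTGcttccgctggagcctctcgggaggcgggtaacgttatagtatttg

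The TIMM23 and TIMM23B windows overlap over 294 bases when offset by 6, and 5 of these bases differ, an identity of 98.3%. Counting from 1 at the 5′ end of the TIMM23 window, with the TIMM23 base first, the differences are T102C, T106C, A201G, T218C and G266T. None of them lies inside the 26 bases of the TIMM23B promoter that the authors named (hg38, chr10:49942048-49942073), and 1 lies in the 55 bases from the start of that promoter to the end of the window. In TIMM10 the ETS motif begins 13 bases before the RefSeq start and the E-box 1 base before it, and the MRPL11 window holds neither, nor the palindromic motif of NRF1 or the YY1 motif AAGATGGCG, factors known to act on nuclear genes of mitochondrial proteins.

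These motifs were searched on both strands in the 107 windows of the 91 members that matched a RefSeq entry and in all 35116 windows of the same length, and matches of different motifs overlapped in 0 of the members' windows. CCGGAAGT was present in 18.7% of the members' windows against 4.14% of all windows. AAGATGGCG was present in 14% against 1.75%, the NRF1 motif in 14% against 5.78%, and CACGTG in 11.2% against 7.26%. No share over the windows of the genes tested here is set beside these, so they do not set the members apart from other genes transcribed in these cells. The median over members of the mean log2 change in the 4 drug comparisons was -1.18 with the ETS motif and -1.15 without, -1.32 with YY1 and -1.15 without, -0.96 with NRF1 and -1.18 without, and -1.11 with the E-box and -1.16 without. A match of letters is not evidence of a bound site.

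Libraries held between 303883 and 2163106 tags in genes, with fewer in the drug groups (303883 to 1290954) than in the vehicle groups (822070 to 2163106). Pearson correlations of log2 levels between replicates ran from 0.866 to 0.977. Levels are given as CPM, tag counts brought to a library size common to all libraries, scaled by the trimmed mean of M values (TMM), a scaling factor per library that assumes most genes do not change; as each transcript gives 1 tag at its start, CPM needs no division by length. The third library of each drug in AML3 stood apart: with TMM factors of 1.49 for JQ1 and 1.55 for OTX015, at the high end of the range of 0.769 to 1.55 over all libraries, it was the lowest of its group for 89 and 81 of the 101 members tested. In AML2 the third library was the lowest for 56 members with JQ1 and 55 with OTX015. No share of all genes is set beside these counts, so they do not show whether other genes were low there too. With replicates 1 and 2 alone, 0 of 120 values of named genes and promoters in the AML3 drug comparisons changed sign in a called value. Of these, 2 calls were lost, those of TIMM8B with JQ1 (-0.37, adjusted p = 0.100) and MRPL30 with OTX015 (-0.49, adjusted p = 0.0630), and 3 were gained, those of TOMM7 with both drugs and of 1 TOMM7 promoter with OTX015. Of 10 myeloid markers, 9 were in the table, summing to 730.1 to 5124 CPM in every library, while 0 of 5 erythroid and 0 of 4 T cell markers were listed, and the listed B cell and stromal markers summed to at most 2.47 and 6.25 CPM. The myeloid markers themselves were called lower for 8 of 9 with JQ1 and 9 of 9 with OTX015 in AML3, and for 3 and 4 of 9 in AML2; their part in the results was not tested.

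With vehicle, the 101 members that passed the filter on low counts had mean levels of 13.3 to 554 CPM in AML3 (median 89.3) and 12.7 to 585 CPM in AML2 (median 116). The small TOM subunits TOMM7 and TOMM6 headed the list in AML3 and AML2 (TOMM7 with 554 ± 51.7 CPM in AML3, TOMM6 with 585 ± 87.3 CPM in AML2; SD, n = 3 each). Among the mitoribosomal genes, MRPL52 was the highest in AML3 at 339 CPM and MRPL33 in AML2 at 529 CPM. TIMM22 and its partners were the weakest group, with TIMM22 itself at 45.6 ± 9.01 CPM in AML3 and 50.8 ± 4.8 CPM in AML2 (SD, n = 3 each). MRPL12 is the member left out: its row held 14 tags over all 18 libraries, as described with its locus.

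Added together, the 102 members took a smaller share of all gene tags with either drug. In AML3 they made up 0.683%, 0.679% and 0.466% of gene tags in the JQ1 libraries and 0.638%, 0.624% and 0.449% in the OTX015 libraries, against 1.04%, 1.02% and 0.954% in the vehicle libraries. In AML2 they made up 0.690%, 0.679% and 0.660% with JQ1 and 0.613%, 0.670% and 0.642% with OTX015, against 1.22%, 1.19% and 1.21% with vehicle. No drug library overlapped a vehicle library of its line. The means were 0.610 ± 0.124% with JQ1, 0.570 ± 0.105% with OTX015 and 1.01 ± 0.0457% with vehicle in AML3, and 0.676 ± 0.0153%, 0.641 ± 0.0286% and 1.21 ± 0.0156% in the same order in AML2 (SD, n = 3 each). The first and second AML3 libraries of either drug, at 0.624% to 0.683%, were below vehicle without the third. These shares need no scaling factor. In bulk RNA of this kind, fewer cells with a transcript and less RNA per cell cannot be told apart.

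**Figure D1:**
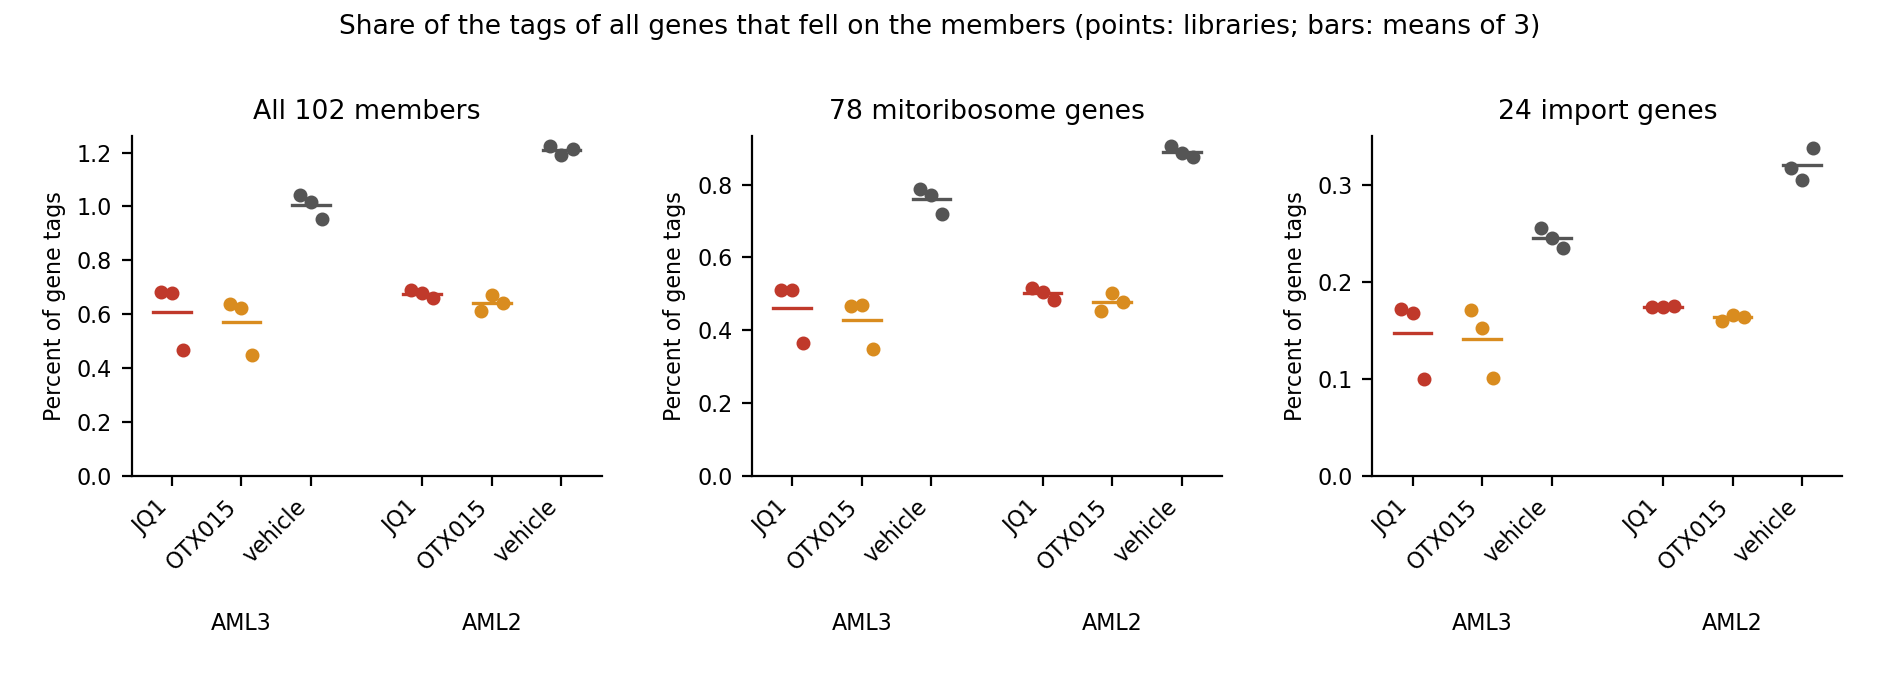
Percent of all gene tags that fell in the 102 members, in the 78 mitoribosomal genes and in the 24 import genes, for each of the 18 libraries (points) with the group mean (bar). Shares with JQ1 and OTX015 lie below those with vehicle in both lines, and the lowest points in AML3 are the third libraries of JQ1 (0.466% for all members) and OTX015 (0.449%).

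Tested gene by gene (edgeR's quasi-likelihood test on all 10031 genes that passed the filter, two-sided, called at a Benjamini-Hochberg adjusted p under 0.05), most members fell with each drug in each line. In AML3, 76 of 101 were lower and 2 higher with JQ1, against a background of 24.1% of all genes lower and 26.8% higher. With OTX015 in AML3, 86 were lower and 2 higher (background 26.1% and 28.8%). In AML2, 80 were lower and 1 higher with JQ1 (background 17.4% and 17.2%), and 81 lower and 1 higher with OTX015 (background 19.9% and 20.5%). The median log2 change over the 101 members was -1.02 with JQ1 and -1.28 with OTX015 in AML3, and -1.06 and -1.17 in AML2, while over all genes it was 0.04, 0.03, 0 and 0.02 in the same order. The JQ1 and OTX015 groups of a line are set against the same vehicle libraries, so their counts are not independent of each other.

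By size, 55 members were called at least 2-fold lower with JQ1 and 75 with OTX015 in AML3 (background 16.1% and 19.1%), and 54 with JQ1 and 63 with OTX015 in AML2 (background 11.0% and 13.2%). All 3 drug libraries lay below all 3 vehicle libraries for 86 members with JQ1 and 87 with OTX015 in AML3 (background 28.6% and 30.1%), and for 85 and 88 in AML2 (background 24.4% and 25.5%). For 80 members all 12 drug libraries lay below the vehicle libraries of their own line (background 14.6%). With replicates 1 and 2 alone, without the libraries that stood apart, 76 members were lower with JQ1 and 84 with OTX015 in AML3, and 80 and 87 in AML2. Scaling by library totals alone moved the median of all genes to 0.44 with JQ1 and 0.51 with OTX015 in AML3, and to 0.16 and 0.20 in AML2. It left 58 and 64 members lower in AML3 and 69 and 73 in AML2, with member medians of -0.64, -0.82, -0.88 and -0.98. The background shares given above belong to the main fit. Those of all genes with replicates 1 and 2 alone or with library totals alone are not given here.

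**Figure D2:**
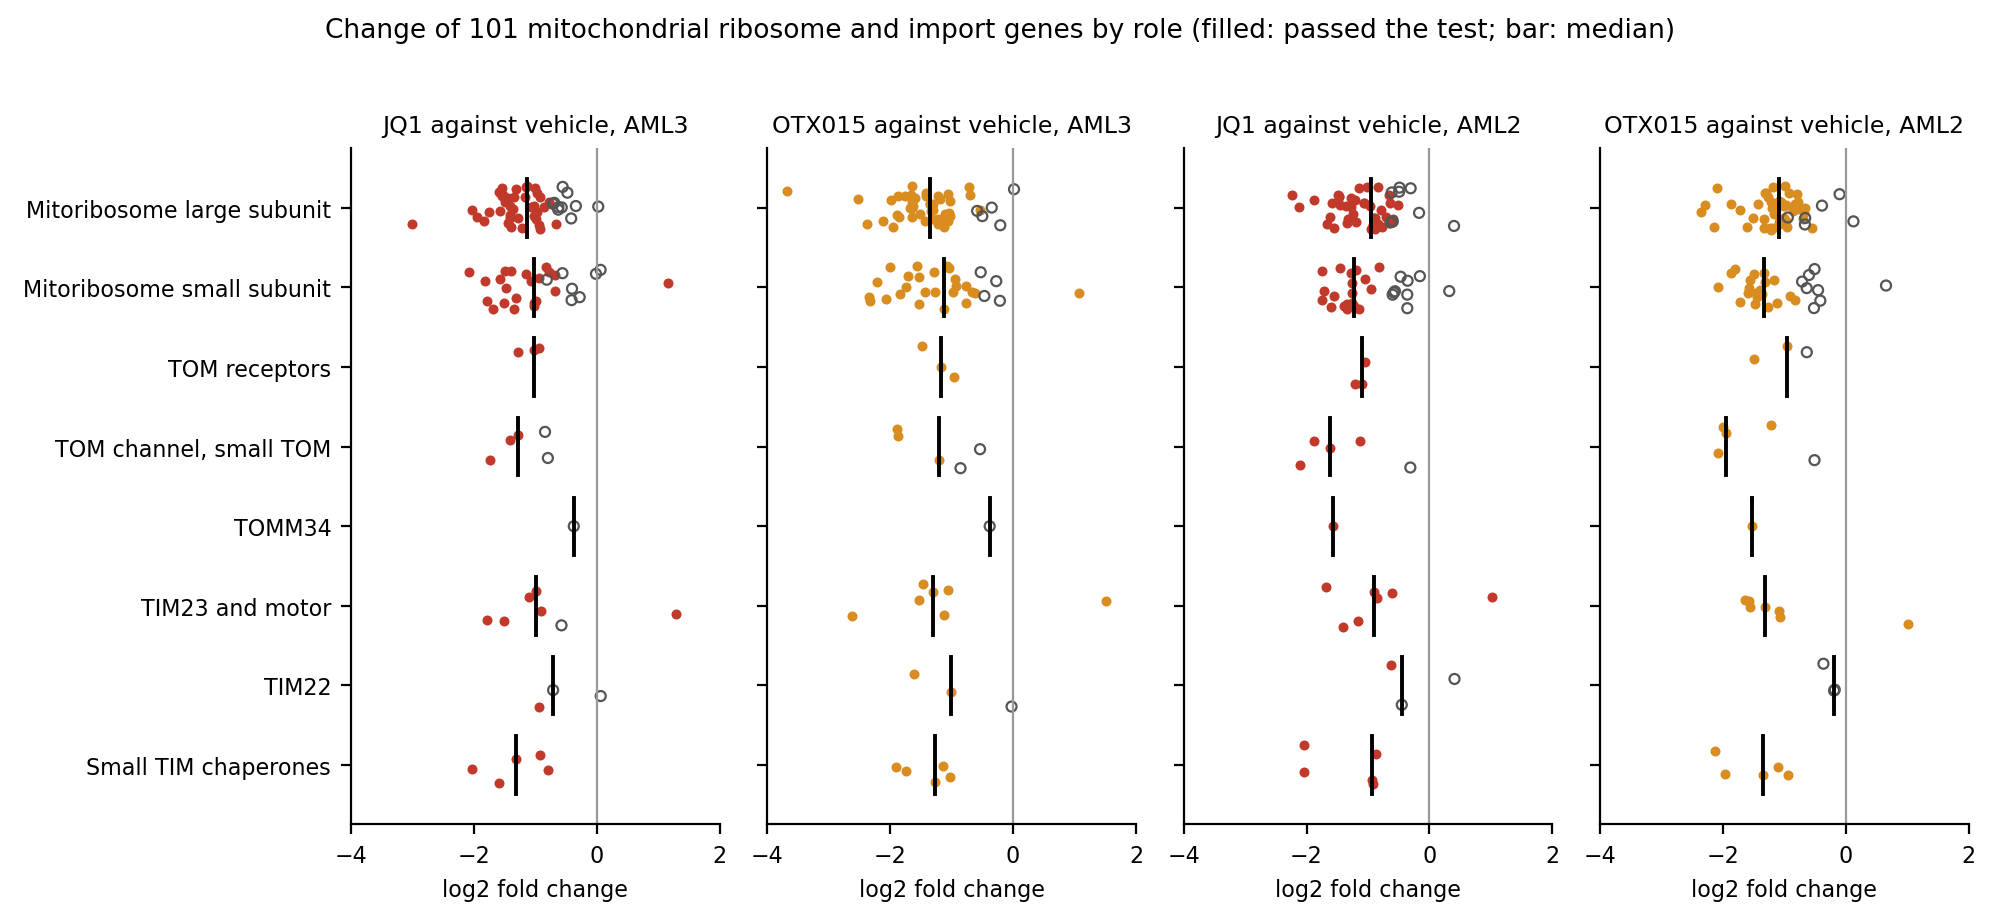
Log2 change against vehicle of each tested member, grouped by role, in 4 panels (JQ1 and OTX015 in AML3, then in AML2). Each dot is 1 gene, filled where the adjusted p was under 0.05 and open otherwise, and the black bar is the median of the role. Nearly all dots lie below 0. MRPS6 and TIMM23B lie above 0 in every panel, and TIMM29, MRPL53, MRPL48 and MRPS36 lie above it in some panels without a call there.

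In all 4 drug comparisons together, 68 of the 101 members were lower each time, against 11.2% of all genes, and 66 with replicates 1 and 2 alone. Another 9 were lower in 3 comparisons, 8 in 2, 8 in 1 and 8 in none. Lower in all 4 were 36 of 48 large subunit genes, 17 of 29 small subunit genes, 5 of 5 small TIM chaperones, 5 of 7 genes of TIM23 and its motor, 3 of 5 genes of the TOM channel and small subunits, 2 of 3 TOM receptors and 0 of 3 TIM22 genes. Across the 101 members the log2 change in AML3 followed that in AML2, with Pearson r of 0.702 and Spearman rho of 0.610 for JQ1 and 0.691 and 0.571 for OTX015. These describe genes measured in the same libraries and carry no test.

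**Figure D3:**
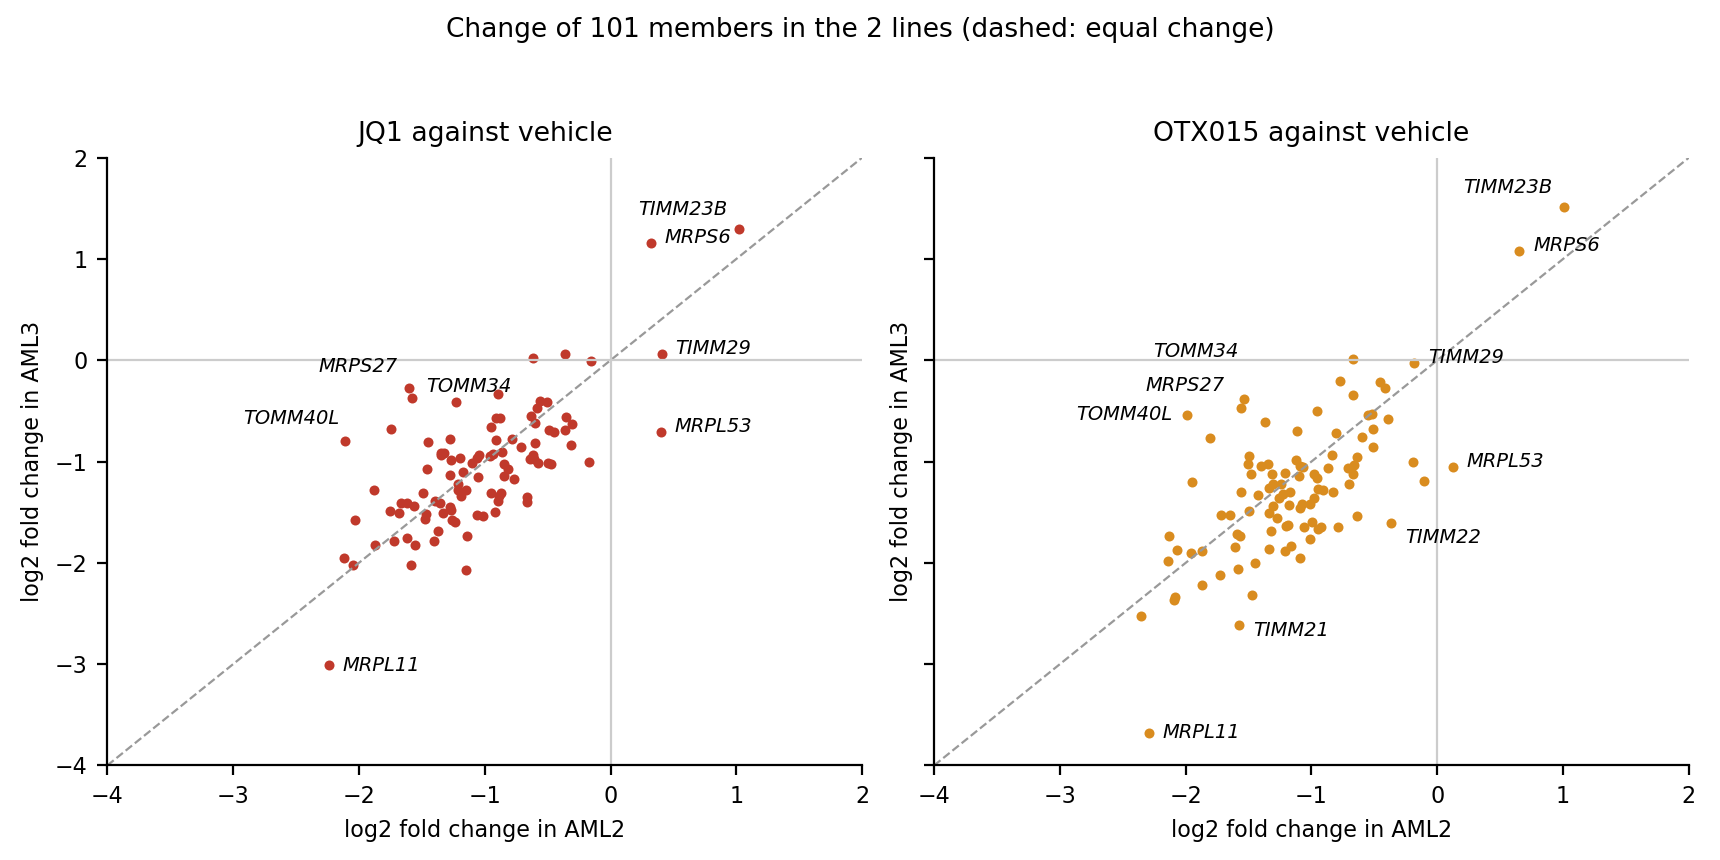
Log2 change against vehicle in AML3 (vertical axis) and AML2 (horizontal axis) for the 101 members, with 1 panel for JQ1 and 1 for OTX015. Most genes lie in the lower left quadrant; MRPL11 is at the bottom, and MRPS27, which was called lower in AML2 and not in AML3, lies to the left near 0 on the vertical axis.

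Large subunit genes had the lowest log2 changes of all members, MRPL11 in 3 comparisons and MRPL23 with OTX015 in AML2. Of the 48 tested large subunit genes, 38 were lower with JQ1 and 43 with OTX015 in AML3, and 40 and 42 in AML2, with none higher, and the median log2 changes were -1.14, -1.34, -0.96 and -1.08. MRPL11 (chr11:66435075-66466738, minus strand, GENCODE 29 on GRCh38), a protein of the stalk base where translation factors bind, had 16.9, 18 and 1.8 CPM in AML3 JQ1 libraries and 10.9, 9.86 and 2.15 CPM in OTX015 libraries, against 111, 107 and 116 CPM in vehicle libraries. In AML2, MRPL11 had 39.9, 50.2 and 33.5 CPM with JQ1 and 40.9, 36.8 and 46.3 CPM with OTX015, against 222, 175 and 204 CPM with vehicle. The groups were far apart in both lines, and the lowest values, in the third AML3 libraries, rest on 1 tag each. Its log2 change was -3.01 (SE 0.34, adjusted p = 5.18e-08) with JQ1 and -3.68 (SE 0.41, adjusted p = 8.79e-09) with OTX015 in AML3, and -2.24 (SE 0.26, adjusted p = 4.94e-07) with JQ1 and -2.29 (SE 0.27, adjusted p = 3.43e-07) with OTX015 in AML2. With replicates 1 and 2 alone it was -2.64 with JQ1 and -3.39 with OTX015 in AML3.

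MRPL23, whose bacterial counterpart lines the exit of the peptide tunnel, had 91.6, 91.9 and 27.1 CPM with JQ1 and 55.7, 52.6 and 34.5 CPM with OTX015 in AML3, against 278, 283 and 285 CPM with vehicle. In AML2 the values were 89, 85.5 and 72.3 CPM with JQ1 and 63, 83.2 and 63.2 CPM with OTX015, against 372, 325 and 385 CPM with vehicle. Every drug library was below every vehicle library, and log2 changes were -1.95 with JQ1 and -2.53 with OTX015 in AML3, and -2.12 with JQ1 and -2.35 with OTX015 in AML2 (adjusted p from 2.07e-07 to 4.64e-06). MRPL24, an early-assembling protein in bacteria, fell by 2.02 with JQ1 and 2.37 with OTX015 in AML3, to means of 47.9 ± 25.2 and 37.8 ± 13.4 CPM, against 203 ± 49.7 CPM with vehicle (SD, n = 3 each). MRPL3, a core protein near the peptidyl transferase centre, showed the same size of change in both lines, at -1.83 with JQ1 and -1.98 with OTX015 in AML3, and -1.87 with JQ1 and -2.14 with OTX015 in AML2. No call of these 4 genes was lost when any single library was left out. At the other end, MRPL43 was the least changed of the 68 genes lower in all 4 comparisons, with -0.78 with JQ1 and -0.72 with OTX015 in AML3, and -0.78 with JQ1 and -0.80 with OTX015 in AML2.

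The small subunit genes, by symbol, followed. Of 29 tested, 21 were lower with JQ1 and 24 with OTX015 in AML3, and 20 and 21 in AML2, with 1 higher (MRPS6) in AML3, and medians were -1.01, -1.12, -1.23 and -1.34. MRPS15, which binds the small subunit RNA, gave 32, 38 and 34.3 CPM with JQ1 and 21.8, 29.6 and 17.2 CPM with OTX015 in AML3, against 119, 129.8 and 111 CPM with vehicle. In AML2 it gave 78.8, 78.4 and 52.9 CPM with JQ1 and 56, 53.2 and 56.8 CPM with OTX015, against 244, 237 and 221 CPM with vehicle. No drug library reached a vehicle library of its line, and log2 changes were -1.79 with JQ1 and -2.34 with OTX015 in AML3, and -1.72 with JQ1 and -2.08 with OTX015 in AML2 (adjusted p from 2.1e-08 to 4.98e-07). MRPS12, the counterpart of the bacterial decoding centre protein, changed by -1.58 with JQ1 and -2.0 with OTX015 in AML3, and -1.26 with JQ1 and -1.45 with OTX015 in AML2. MRPS24 and MRPS2 were lower in all 4 comparisons as well, with -1.82 with JQ1 and -2.22 with OTX015 in AML3, and -1.56 with JQ1 and -1.87 with OTX015 in AML2 for MRPS24 and -1.49 with JQ1 and -2.06 with OTX015 in AML3, and -1.75 with JQ1 and -1.58 with OTX015 in AML2 for MRPS2.

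The 3 MRPS18 paralogues, which encode related proteins at separate places in the mitoribosome, differed in size of change. MRPS18B fell in both lines, to 25.8, 18 and 14.4 CPM with JQ1 and 19.7, 15.3 and 15.1 CPM with OTX015 in AML3, against 81.5, 97.8 and 75.2 CPM with vehicle. In AML2 it fell to 54.8, 66.1 and 61.7 CPM with JQ1 and 51.4, 46.4 and 48.4 CPM with OTX015, against 142, 141 and 121 CPM with vehicle. The log2 changes of MRPS18B were -2.07 with JQ1 and -2.32 with OTX015 in AML3, and -1.15 with JQ1 and -1.47 with OTX015 in AML2, and those of MRPS18C -1.39 with JQ1 and -1.44 with OTX015 in AML3, and -1.39 with JQ1 and -1.31 with OTX015 in AML2, all called. MRPS18A, whose protein sits in the large subunit despite its symbol, was lower in AML3 at -1.01 (SE 0.29, adjusted p = 0.00476) with JQ1 and -1.53 (SE 0.31, adjusted p = 0.000160) with OTX015. In AML2 its values were -0.58 (SE 0.26, adjusted p = 0.0891) and -0.64 (SE 0.27, adjusted p = 0.0570), which missed the threshold, although the OTX015 value passed it without AML2 vehicle replicate 3 (-0.76, adjusted p = 0.0402). MRPS31, MRPS36 and MRPS21 passed as genes in no comparison of a drug with vehicle. MRPS36 is now known as a subunit of the alpha-ketoglutarate dehydrogenase complex. With JQ1 its downstream promoter was called lower in AML2 and its upstream promoter higher in AML3. The first call was lost without any 1 of 4 libraries and the second without any 1 of 5.

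**Figure D4:**
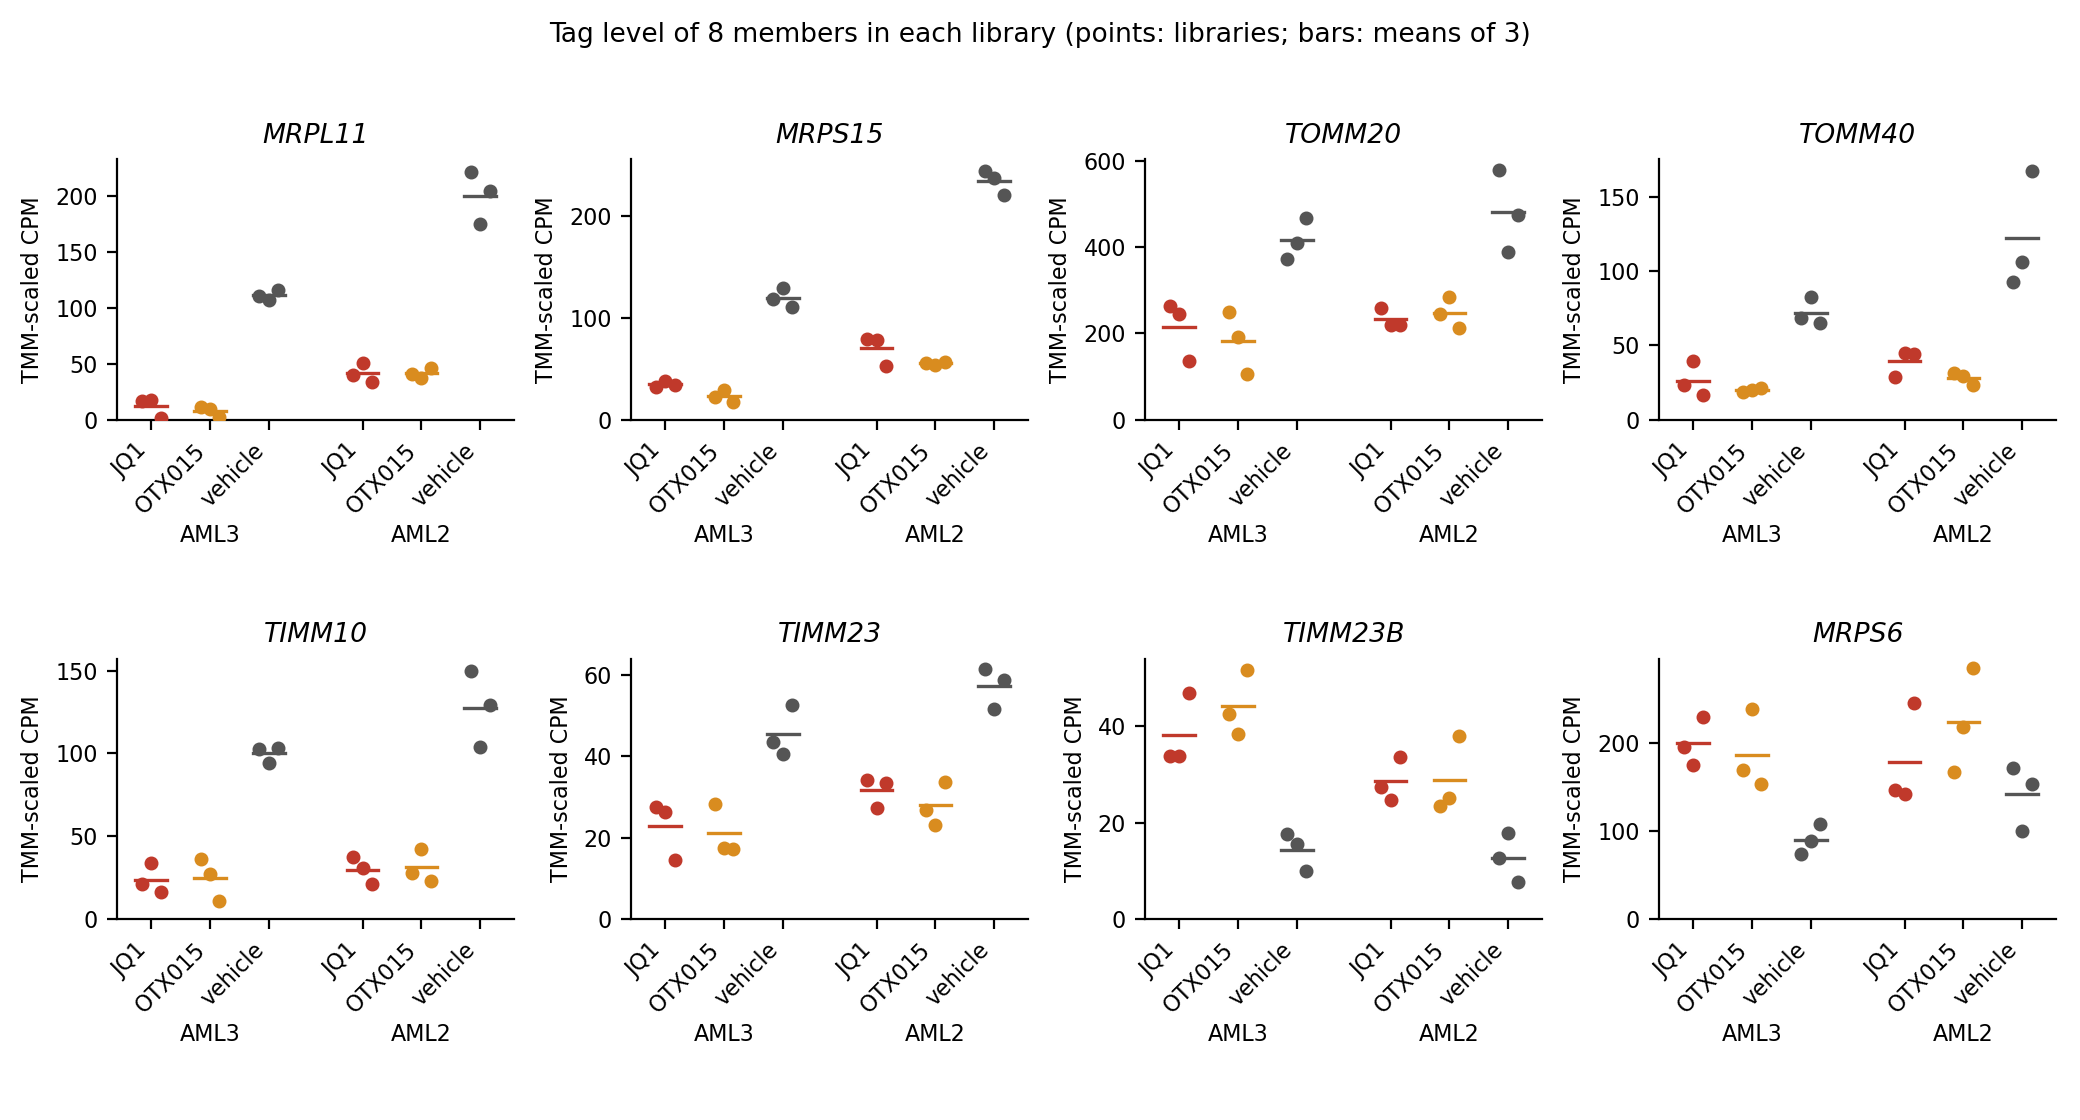
CPM (TMM-scaled) of 8 members in each of the 18 libraries (points), with group means as bars, AML3 groups left of AML2 groups. MRPL11, MRPS15, TOMM20, TOMM40, TIMM10 and TIMM23 are lower with JQ1 and OTX015 than with vehicle, whereas TIMM23B is higher in both lines and MRPS6 is higher in AML3.

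At the outer membrane, the 3 receptors were all lower with both drugs in AML3 and with JQ1 in AML2. TOMM20, the receptor for presequences, had 263, 245 and 137 CPM with JQ1 and 250.1, 193 and 106 CPM with OTX015 in AML3, against 374, 409 and 467 CPM with vehicle. AML2 cells gave 259, 219 and 221 CPM with JQ1 and 244, 285 and 213 CPM with OTX015, against 579.7, 389 and 474 CPM with vehicle. No drug library reached a vehicle library, and log2 changes were -0.94 with JQ1 and -1.17 with OTX015 in AML3, and -1.05 with JQ1 and -0.95 with OTX015 in AML2; without AML2 vehicle replicate 1 the OTX015 change in AML2 was -0.80 with an adjusted p of 0.0501. TOMM22, the central receptor that holds the complex together, changed by -1.28 with JQ1 and -1.49 with OTX015 in AML3, and -1.21 with JQ1 and -1.49 with OTX015 in AML2. TOMM70, which receives carrier precursors from cytosolic chaperones, changed by -1.01 with JQ1 and -0.96 with OTX015 in AML3, and -1.10 with JQ1 and -0.64 with OTX015 in AML2, of which the last missed the threshold (adjusted p = 0.0607).

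TOMM40, the channel itself, fell to 23.1, 39.1 and 16.2 CPM with JQ1 and 18.6, 19.7 and 21.5 CPM with OTX015 in AML3, against 68.6, 82.2 and 65.2 CPM with vehicle. In AML2 it fell to 28.5, 45 and 44.1 CPM with JQ1 and 31.5, 29 and 23.2 CPM with OTX015, against 92.7, 106 and 167 CPM with vehicle. The groups did not overlap, and log2 changes were -1.41 (SE 0.28, adjusted p = 0.000153), -1.87 (SE 0.31, adjusted p = 1.16e-05), -1.62 (SE 0.26, adjusted p = 2.21e-05) and -2.07 (SE 0.28, adjusted p = 1.36e-06) in the same order. Of the small subunits that stabilise the channel, TOMM5 changed by -1.29 with JQ1 and -1.21 with OTX015 in AML3, and -1.88 with JQ1 and -1.95 with OTX015 in AML2, and TOMM6 by -1.74 with JQ1 and -1.88 with OTX015 in AML3, and -1.14 with JQ1 and -1.21 with OTX015 in AML2, all called; another gene annotated on the same strand starts at the same base as TOMM5, so their tags cannot be told apart. TOMM40L, a weakly transcribed relative of TOMM40 at 14.1 ± 1.8 CPM in AML3 and 15.4 ± 2.15 CPM in AML2 with vehicle (SD, n = 3 each), was lower in AML2 at -2.11 (SE 0.51, adjusted p = 0.000762) with JQ1 and -1.99 (SE 0.51, adjusted p = 0.00112) with OTX015. In AML3 its changes of -0.79 and -0.54 missed the threshold (adjusted p = 0.0937 and 0.250). TOMM34, a cytosolic co-chaperone of precursors rather than a TOM subunit, likewise passed in AML2 and not in AML3, with -1.57 (SE 0.27, adjusted p = 5.38e-05) with JQ1 and -1.54 (SE 0.27, adjusted p = 6.29e-05) with OTX015 in AML2, set beside -0.37 (SE 0.30, adjusted p = 0.300) and -0.38 (SE 0.31, adjusted p = 0.293) in AML3. The difference between lines did not pass the test for either gene (adjusted p = 0.227 for JQ1 and 0.161 for OTX015 for TOMM40L, 0.0676 and 0.0848 for TOMM34).

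TOMM7, the third small subunit and the most abundant member in AML3, was called as a gene in no comparison of a drug with vehicle. It had 424, 410.05 and 86.6 CPM with JQ1 and 478, 348 and 81.8 CPM with OTX015 in AML3, against 613, 517 and 533 CPM with vehicle, and 484, 522 and 369 CPM with JQ1 and 474, 386 and 337 CPM with OTX015 in AML2, against 533, 611 and 565 CPM with vehicle. The third AML3 drug libraries were far below their replicates, and the drug libraries were nonetheless all below vehicle in both lines. The log2 changes were -0.84 (SE 0.43, adjusted p = 0.108) and -0.85 (SE 0.43, adjusted p = 0.0976) in AML3, and -0.31 (SE 0.43, adjusted p = 0.612) and -0.51 (SE 0.43, adjusted p = 0.363) in AML2. With replicates 1 and 2 alone, the AML3 changes were smaller and passed, at -0.43 (adjusted p = 0.0450) with JQ1 and -0.46 (adjusted p = 0.0306) with OTX015, and without AML3 OTX015 replicate 1 the OTX015 change was -1.34 (adjusted p = 0.0254). Of the 2 tested promoters of TOMM7, 1 was called lower with JQ1 in each line and with OTX015 in AML2, and 0 with OTX015 in AML3. The weaker, downstream promoter had means of 29 CPM with JQ1 and 19.4 CPM with OTX015 in AML2, against 118.5 CPM with vehicle.

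In the presequence translocase of the inner membrane, 5 of 7 genes were lower with JQ1 in AML3 and 6 of 7 in each other comparison, with TIMM23B the exception throughout. TIMM21, which tethers TIM23 to the outer membrane complex, fell to 12.4, 16.9 and 9.02 CPM with JQ1 and 9.83, 3.29 and 4.31 CPM with OTX015 in AML3, against 38.7, 35.5 and 39.7 CPM with vehicle. In AML2 it fell to 18.3, 23.8 and 14.1 CPM with JQ1 and 17.5, 20.3 and 27.4 CPM with OTX015, against 78.4, 52.6 and 57.5 CPM with vehicle. All drug libraries were below all vehicle libraries, with changes of -1.51 with JQ1 and -2.61 with OTX015 in AML3, and -1.68 with JQ1 and -1.57 with OTX015 in AML2. TIMM50, the receptor that takes precursors over from TOM, changed by -1.78 with JQ1 and -1.53 with OTX015 in AML3, and -1.40 with JQ1 and -1.65 with OTX015 in AML2. TIMM44, which anchors the import motor to the channel, changed by -1.10 with JQ1 and -1.30 with OTX015 in AML3, and -1.17 with JQ1 and -1.56 with OTX015 in AML2. These TIMM44 calls rest on few tags, and each library that ends one is given here. In AML3 with JQ1 the change was -0.87 (adjusted p = 0.151) without vehicle replicate 1, -1.03 (0.0747) without vehicle replicate 2, -0.76 (0.157) without JQ1 replicate 2 and -0.97 (0.0693) without JQ1 replicate 3. With OTX015 in AML3 it was -1.07 (0.0853) without vehicle replicate 1, -1.25 (0.0511) without OTX015 replicate 1 and -1.02 (0.0544) without OTX015 replicate 3. With JQ1 in AML2 it was -0.93 (0.0776) without vehicle replicate 3 and -1.08 (0.0755) without JQ1 replicate 2.

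The TIMM17 paralogues form the channel with TIMM23. TIMM17A changed by -0.57 with JQ1 and -1.13 with OTX015 in AML3, and -0.91 with JQ1 and -1.31 with OTX015 in AML2, of which JQ1 in AML3 missed the threshold (adjusted p = 0.0844). TIMM17B changed by -0.98 with JQ1 and -1.46 with OTX015 in AML3, and -0.61 with JQ1 and -1.09 with OTX015 in AML2. Its JQ1 call in AML2 was lost without vehicle replicate 1 or 2 or without any 1 of the 3 JQ1 libraries, where values ran from -0.68 to -0.50 with adjusted p from 0.0631 to 0.152.

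TIMM23 and its copy TIMM23B went in opposite directions. TIMM23 (chr10:45972449-46003734, plus strand) had 27.6, 26.4 and 14.4 CPM with JQ1 and 28.4, 17.5 and 17.2 CPM with OTX015 in AML3, against 43.4, 40.7 and 52.5 CPM with vehicle. The AML2 levels were 34.2, 27.3 and 33.5 CPM with JQ1 and 26.9, 23.2 and 33.7 CPM with OTX015, against 61.5, 51.5 and 58.8 CPM with vehicle. Drug libraries were all below vehicle libraries, and TIMM23 fell by 0.91 with JQ1 and 1.05 with OTX015 in AML3, and by 0.86 and 1.07 in AML2 on the log2 scale (adjusted p from 0.00104 to 0.00573). TIMM23B (chr10:49942033-49974850, plus strand), in contrast, had 33.8, 33.8 and 46.9 CPM with JQ1 and 42.6, 38.3 and 51.7 CPM with OTX015 in AML3, against 17.6, 15.6 and 9.93 CPM with vehicle. AML2 cells gave 27.4, 24.7 and 33.5 CPM with JQ1 and 23.4, 25.2 and 37.9 CPM with OTX015, against 12.6, 17.9 and 7.67 CPM with vehicle. Here every drug library was above every vehicle library of its line. TIMM23B rose by 1.30 (SE 0.29, adjusted p = 0.000619) with JQ1 and 1.51 (SE 0.29, adjusted p = 9.83e-05) with OTX015 in AML3, and by 1.02 (SE 0.30, adjusted p = 0.00983) and 1.01 (SE 0.31, adjusted p = 0.0105) in AML2; without AML2 OTX015 replicate 3 the last value was 0.82 (adjusted p = 0.0570). The promoter windows of the copies differ at 5 of 294 aligned bases, so how tags were divided between them depends on the alignment, and both values are uncertain.

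The 5 small TIM chaperones, which escort hydrophobic precursors across the intermembrane space, were lower in all 4 comparisons, with medians of -1.31 with JQ1 and -1.27 with OTX015 in AML3, and -0.93 and -1.35 in AML2. TIMM10 (chr11:57528463-57530803, minus strand), partner of TIMM9, had 21.3, 33.8 and 16.2 CPM with JQ1 and 36, 27.4 and 10.8 CPM with OTX015 in AML3, against 103, 94.3 and 104 CPM with vehicle. The AML2 libraries had 37.7, 30.9 and 21.2 CPM with JQ1 and 28, 42.6 and 23.2 CPM with OTX015, against 149.99, 104 and 129 CPM with vehicle. The drug libraries were well below vehicle in both lines, and the change was close to the same size in each comparison, at -2.02 (SE 0.29, adjusted p = 3.25e-06), -1.90 (SE 0.30, adjusted p = 6.27e-06), -2.05 (SE 0.28, adjusted p = 2.95e-06) and -1.96 (SE 0.28, adjusted p = 3.7e-06). TIMM13, partner of TIMM8A, had means of 70.2 ± 12.4 CPM with JQ1 and 62.1 ± 20.2 CPM with OTX015 in AML3, against 213 ± 18.1 CPM with vehicle (SD, n = 3 each). In AML2 its means were 106 ± 4.37 CPM with JQ1 and 97.1 ± 18.2 CPM with OTX015, against 433 ± 38.3 CPM with vehicle (SD, n = 3 each). Log2 changes of TIMM13 were -1.58 with JQ1 and -1.74 with OTX015 in AML3, and -2.03 with JQ1 and -2.14 with OTX015 in AML2, and no single library ended a call of TIMM10 or TIMM13.

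TIMM9 changed by -0.93 with JQ1 and -1.03 with OTX015 in AML3, and -0.93 with JQ1 and -1.35 with OTX015 in AML2. TIMM8A, mutated in Mohr-Tranebjaerg deafness-dystonia syndrome, changed by -1.31 with JQ1 and -1.14 with OTX015 in AML3, and -0.87 with JQ1 and -1.10 with OTX015 in AML2, and TIMM8B by -0.79 with JQ1 and -1.27 with OTX015 in AML3, and -0.91 with JQ1 and -0.94 with OTX015 in AML2. Single libraries ended some of these smaller calls. TIMM9 with JQ1 in AML3 was -0.76 (adjusted p = 0.0788) without vehicle replicate 1 and -0.65 (0.0549) without JQ1 replicate 3, and in AML2 -0.88 (0.0565) without vehicle replicate 2 and -0.81 (0.0693) without JQ1 replicate 3. TIMM8A with JQ1 in AML2 was -0.74 (0.0785) without vehicle replicate 1 and -0.60 (0.113) without JQ1 replicate 3. TIMM8B with JQ1 in AML3 was -0.80 (0.0623) without vehicle replicate 1, -0.70 (0.0837) without vehicle replicate 3 and -0.47 (0.133) without JQ1 replicate 3, and with OTX015 in AML2 it was -0.87 (0.0503) without OTX015 replicate 1.

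The TIM22 translocase, which inserts carriers into the inner membrane, held the fewest calls. TIMM22 had 28.5, 26.4 and 14.4 CPM with JQ1 and 19.7, 12 and 12.9 CPM with OTX015 in AML3, against 52.8, 48.5 and 35.5 CPM with vehicle. In AML2 it had 34.2, 34.4 and 28.2 CPM with JQ1 and 39.7, 37.7 and 40.004 CPM with OTX015, against 48.9, 47.2 and 56.2 CPM with vehicle. Drug libraries were below vehicle libraries in both lines, by less in AML2. Its changes were -0.94 (SE 0.25, adjusted p = 0.00239) with JQ1 and -1.61 (SE 0.28, adjusted p = 2.52e-05) with OTX015 in AML3, and -0.62 (SE 0.23, adjusted p = 0.0390) with JQ1 and -0.37 (SE 0.23, adjusted p = 0.212) with OTX015 in AML2. The AML2 JQ1 call was lost without any 1 of the 6 libraries compared, at -0.68 to -0.53 with adjusted p from 0.0569 to 0.129. TIMM10B was lower with OTX015 in AML3 at -1.01 (SE 0.42, adjusted p = 0.0366) and missed the threshold elsewhere, and TIMM29 passed nowhere, with changes of 0.07 with JQ1 and -0.02 with OTX015 in AML3, and 0.41 with JQ1 and -0.18 with OTX015 in AML2. TIMM10B starts at the same base as another gene annotated on its strand, so their tags cannot be told apart.

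Besides TIMM23B, MRPS6 was the other member called higher. MRPS6 (chr21:34073224-34143034, plus strand), a small subunit protein, had 196, 174 and 229 CPM with JQ1 and 169, 238 and 153 CPM with OTX015 in AML3, against 73.9, 88.2 and 108 CPM with vehicle. The AML2 libraries had 146, 142 and 245 CPM with JQ1 and 167, 218 and 284 CPM with OTX015, against 171, 100.3 and 153 CPM with vehicle. The AML3 drug libraries were all above vehicle, whereas in AML2 the groups overlapped. The changes were 1.16 (SE 0.28, adjusted p = 0.00128) and 1.08 (SE 0.28, adjusted p = 0.00217) in AML3, and 0.32 (SE 0.27, adjusted p = 0.379) and 0.65 (SE 0.27, adjusted p = 0.0566) in AML2. The AML2 change with OTX015 passed when AML2 vehicle replicate 1 was left out (0.81, adjusted p = 0.0453), and likewise for OTX015 replicate 1 (0.82, adjusted p = 0.0371). In GENCODE 29, SLC5A3, which encodes the sodium and myo-inositol cotransporter, starts on the same strand 21 bases from MRPS6, so a tag there can belong to either gene; SLC5A3 was not analysed here. A search of all 102 members within 100 bases found such a neighbour for 5 of them, which were MRPL12, MRPS17, MRPS6, TIMM10B and TOMM5.

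The level of MRPL12, the stalk protein of the large subunit, could not be read from its own row. That row held 14 tags in 7 of the 18 libraries, at most 7 in a library, and 0 in each AML3 JQ1 and AML2 OTX015 library. It equalled a single promoter that lies 960 bases downstream of a stronger group of 3 promoters (hg19, chr17, plus strand). The counts of those 3 promoters, 3021 tags, were part of the row of SLC25A10, the mitochondrial dicarboxylate carrier, and made up 82.5% of its 3664 tags; the other 643 came from 2 promoters 8913 bases further on. In GENCODE 29 the annotated start of SLC25A10 (chr17, 81712236) lies 8879 bases downstream of that of MRPL12 (chr17, 81703357). The 2 strongest of the upstream promoters fell with both drugs. The first changed by -1.93 with JQ1 and -2.10 with OTX015 in AML3 and by -1.25 and -1.41 in AML2, and the second, 54 bases on, by -2.42 and -2.17 in AML3 and by -1.89 and -2.12 in AML2. A further protein-coding gene of GENCODE 29 with its own row in the count table, AC139530.2, starts on the same strand 14 bases from MRPL12. Which gene the tags of the upstream promoters came from was not tested.

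Promoters of members were found as runs of neighbouring promoters on a strand whose tags sum to the gene's row in every library. This placed 227 of the 42133 promoters on 99 members, of which 36 had 1 promoter and 63 had several, and left MRPL12, MRPS18C and TIMM23 unplaced. Of the 131 promoters, on 98 members, that passed the filter on low counts, 96 were lower and 6 higher with JQ1 in AML3 (background 23.8% and 26.5% of all 12867 promoters tested). With OTX015 in AML3, 100 were lower and 5 higher (background 25.8% and 28.4%). In AML2, 95 were lower and 3 higher with JQ1 (background 18.1% and 17.1%), and 97 and 3 with OTX015 (background 20.0% and 20.5%). Of the 28 members with at least 2 tested promoters, 12 had all of them lower with JQ1 and 12 with OTX015 in AML3, against 14.0% and 16.1% of the 1914 genes of the table matched and tested in the same way. In AML2, 11 had all of them lower with JQ1 and 12 with OTX015 (background 8.73% and 10.1%). Promoters called in opposite directions occurred in 3 of the 28 members with each drug in AML3 (background 4.70% with JQ1 and 4.96% with OTX015) and in 2 with each drug in AML2 (background 1.93% and 2.98%), too few to set the members apart from other genes. These were MRPL30, MRPS28 and, in AML3, MRPS27, singled out after their values were seen.

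In MRPL30, a large subunit gene, the promoters start 29 bases apart (hg19, chr2:99797607-99797623 and chr2:99797636-99797686, plus strand). The upstream one had 11.8, 6.43 and 20.4 CPM with JQ1 and 15.6, 5.61 and 6.67 CPM with OTX015 in AML3, against 3.0, 0.884 and 2.86 CPM with vehicle. In AML2 it had 8.02, 8.01 and 17.8 CPM with JQ1 and 10.6, 9.75 and 17 CPM with OTX015, against 3.48, 1.68 and 5.22 CPM with vehicle. All drug libraries exceeded vehicle, at low levels, and the promoter rose by 2.33 (SE 0.67, adjusted p = 0.00224) and 2.03 (SE 0.69, adjusted p = 0.00856) in AML3 and by 1.73 (SE 0.61, adjusted p = 0.0212) and 1.90 (SE 0.61, adjusted p = 0.00971) in AML2. The downstream promoter, which carried most tags, changed by -0.82 and -0.87 in AML3 and by -0.80 and -0.88 in AML2, all called. The upstream share of the gene's tags was 27% with JQ1 and 24.7% with OTX015 in AML3, against 3.98% with vehicle, and 18.1% and 20.8% in AML2, against 3.58% with vehicle. The upstream call was lost in AML3 with OTX015 without OTX015 replicate 1 (1.32, adjusted p = 0.160). In AML2 it was lost with JQ1 without vehicle replicate 2 (1.27, 0.144) or JQ1 replicate 3 (1.4, 0.0990), and with OTX015 without vehicle replicate 2 (1.44, 0.0831); the downstream call with JQ1 in AML2 was lost without JQ1 replicate 3 (-0.71, 0.0545).

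In MRPS28, a small subunit gene on the minus strand, the lowest coordinates of the promoters lie 345 bases apart. The downstream one had 38, 48.3 and 14.9 CPM with JQ1 and 37.9, 31.4 and 22.2 CPM with OTX015 in AML3, against 3.6, 5.3 and 1.43 CPM with vehicle. Values in AML2 were 25.2, 20.5 and 14.2 CPM with JQ1 and 20.02, 24.4 and 32 CPM with OTX015, against 4.35, 7.29 and 7.84 CPM with vehicle. It rose in every drug library, by 3.22 (SE 0.49, adjusted p = 8.08e-07) and 3.05 (SE 0.50, adjusted p = 2.28e-06) in AML3 and by 1.64 (SE 0.43, adjusted p = 0.00275) and 1.91 (SE 0.43, adjusted p = 0.000494) in AML2, while the upstream promoter changed by -1.38 and -2.49 in AML3 and by -1.78 and -1.79 in AML2, all called. The downstream share of the gene's tags was 50.3% with JQ1 and 66.1% with OTX015 in AML3, against 4.0% with vehicle, and 32.7% and 36.1% in AML2, against 4.36% with vehicle. For the gene as a whole the log2 change was -0.41 (SE 0.26, adjusted p = 0.183) with JQ1 and -0.98 (SE 0.27, adjusted p = 0.00339) with OTX015 in AML3, and -1.23 and -1.12 in AML2.

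In MRPS27 (chr5:72219409-72320646, minus strand), a small subunit gene, the downstream promoter lies further into the gene, its lowest coordinate 11874 bases from that of the upstream one (hg19, chr5:71604169-71604207 and chr5:71616043-71616079, minus strand). It had 17.2, 23.6 and 13 CPM with JQ1 and 23.4, 24.7 and 8.89 CPM with OTX015 in AML3, against 1.2, 1.77 and 2.86 CPM with vehicle. Values in AML2 were 1.15, 1.78 and 1.78 CPM with JQ1 and 0, 1.95 and 4.26 CPM with OTX015, against 3.48, 1.68 and 3.92 CPM with vehicle. The AML3 drug libraries were far above vehicle, and the AML2 groups overlapped near the level of a few tags. The change was 3.31 (SE 0.68, adjusted p = 2.3e-05) and 3.45 (SE 0.68, adjusted p = 1.06e-05) in AML3, and -0.77 (SE 0.89, adjusted p = 0.494) and -0.64 (SE 0.89, adjusted p = 0.569) in AML2. The difference between lines passed the test, at 4.08 (SE 1.12, adjusted p = 0.0131) for JQ1 and 4.09 (SE 1.12, adjusted p = 0.0125) for OTX015 (AML3 minus AML2); without AML2 vehicle replicate 1 the JQ1 difference was 3.88 (adjusted p = 0.0504). The upstream promoter was lower in both lines, at -1.09 and -1.50 in AML3 and -1.67 and -1.67 in AML2. The downstream share of the gene's tags was 34.8% with JQ1 and 43.5% with OTX015 in AML3, against 2.68% with vehicle, and 4.88% and 5.19% in AML2, against 2.73% with vehicle.

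**Figure D5:**
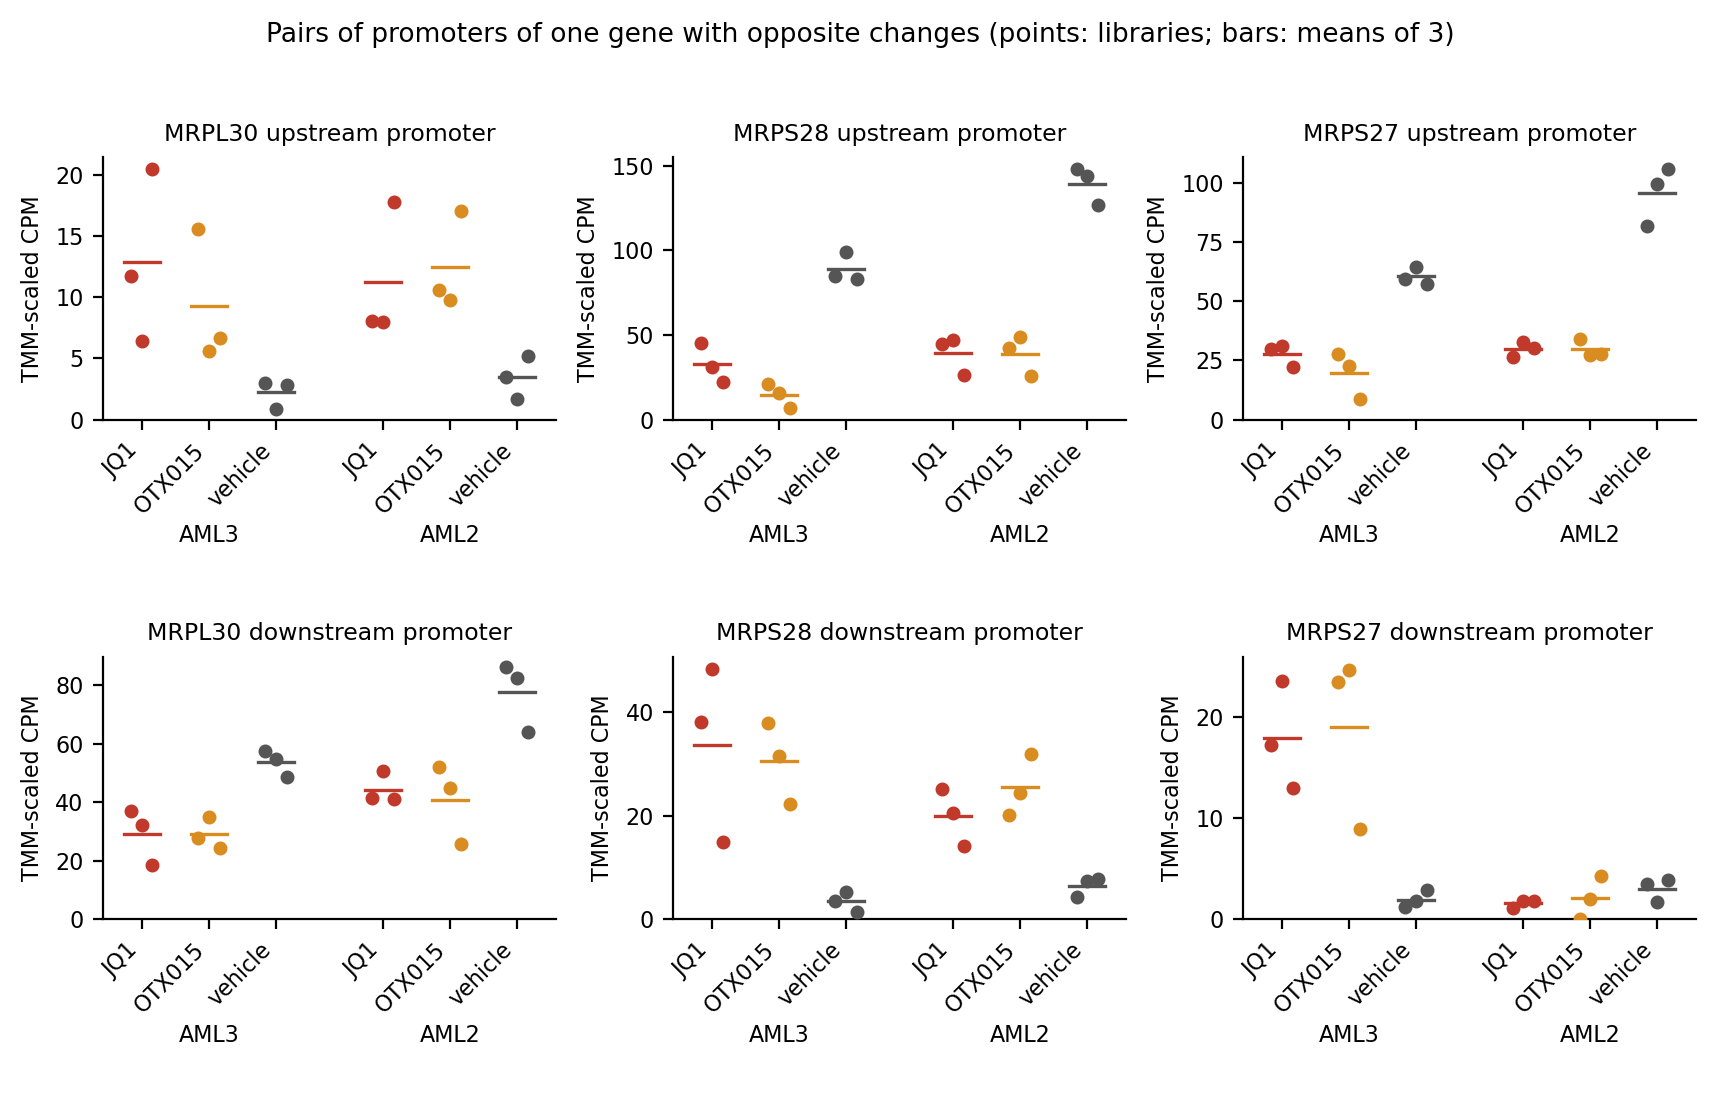
CPM (TMM-scaled) of the upstream (top) and downstream (bottom) promoters of MRPL30, MRPS28 and MRPS27 in each of the 18 libraries (points) with group means (bars), AML3 groups left of AML2 groups. The upstream promoter of MRPL30 and the downstream promoter of MRPS28 are higher with both drugs in both lines, and the downstream promoter of MRPS27 is higher in AML3, while the partner promoter is lower each time.

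Whether a drug's effect differed between the lines was tested directly, as the log2 change in AML3 minus that in AML2. For JQ1, 1 member passed, with a larger (less negative) value in AML3, and 0 passed with a smaller one, against 3.02% and 3.92% of all genes. For OTX015, 1 member passed in each direction, against 2.84% and 4.81%. Of the 131 promoters, 2 passed with a larger value in AML3 for JQ1 and 1 for OTX015 (background 2.25% and 2.14%), and 0 and 1 with a smaller one (background 3.30% and 4.16%). MRPS27 passed for both drugs, at 1.33 (SE 0.33, adjusted p = 0.0128) for JQ1 and 1.09 (SE 0.34, adjusted p = 0.0458) for OTX015. Its gene level was 53.4, 58.1 and 41.5 CPM with JQ1 and 54.6, 52.6 and 21.5 CPM with OTX015 in AML3, against 62.2, 64.9 and 61 CPM with vehicle. In AML2 it was 27.4, 35.3 and 31.8 CPM with JQ1 and 36.2, 29.99 and 31.6 CPM with OTX015, against 82.6, 99.3 and 109 CPM with vehicle. The AML2 groups were far apart, at -1.60 and -1.56, and the AML3 changes of -0.28 and -0.47 missed the threshold (adjusted p = 0.325 and 0.0957).

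TIMM22 passed for OTX015, at -1.24 (SE 0.37, adjusted p = 0.0307) and missed the threshold for JQ1, at -0.32 (SE 0.34, adjusted p = 0.643). These differences rest on single libraries. For JQ1, MRPS27 was at 1.23 (adjusted p = 0.0509) without AML2 JQ1 replicate 1. For OTX015, MRPS27 missed the threshold, at 0.91 to 1.18 with adjusted p from 0.0688 to 0.155, without any 1 of the 12 libraries compared other than AML2 vehicle replicate 1 and AML3 OTX015 replicate 3. TIMM22 missed it, at -1.28 to -1.07 with adjusted p from 0.0564 to 0.114, without AML3 OTX015 replicate 2 or 3, AML3 vehicle replicate 1 or 2, AML2 OTX015 replicate 1 or 2, or AML2 vehicle replicate 1 or 2.

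OTX015 and JQ1 were compared directly within each line and over both lines, 1 pair of compounds whose doses and durations are not given. No member and no other gene passed in AML3, in AML2 or over both lines (edgeR, 0 of 10031 genes; adjusted p over all genes). At an unadjusted p under 0.05 there were 6 members in AML3, 0 in AML2 and 6 over both lines, and 253, 331 and 375 of all genes. DESeq2 called 0 members too, and 1 other gene in AML2, with 3, 0 and 4 members at an unadjusted p under 0.05. The median difference over members, OTX015 minus JQ1, was -0.19 in AML3, -0.08 in AML2 and -0.15 over both lines, and the difference was negative for 78, 70 and 80 of 101 members. No median or share of all genes is set beside these values, so they do not set the members apart from other genes. The 95% interval lay within 2-fold either way for 69 members in AML3, 83 in AML2 and 97 over both lines.

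Over both lines the differences ran from -0.72 (95% interval -1.41 to -0.02) for MRPL45 to 0.26 (95% interval -0.20 to 0.71) for TOMM70. For the genes with large falls they were -0.36 (95% interval -0.93 to 0.22) for MRPL11, -0.46 (95% interval -0.81 to -0.11) for MRPS15, -0.46 (95% interval -0.92 to 0.01) for TOMM40 and 0.10 (95% interval -0.38 to 0.59) for TIMM10. The interval of MRPS15 does not include 0 before adjustment, and its adjusted p was 0.9999. The intervals that reached past 2-fold over both lines were those of MRPL45, TIMM21, TIMM44 and TOMM40L. A p that misses the threshold does not show that the ester and the amide act alike on these genes. Without AML3 JQ1 replicate 3, which stood apart, 25 members and 796 of all 10289 genes then tested in AML3 had an unadjusted p under 0.05, and none passed after adjustment. That fit kept AML3 OTX015 replicate 3, which stood apart too, so it does not treat the drugs alike and shows no difference between them. With replicates 1 and 2 alone, which leaves out both, 0 members were called lower and 0 higher in AML3.

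With vehicle alone, the lines differed in a smaller number of members. In AML3, 35 of 101 were lower and 5 higher than in AML2 (background 11.7% and 11.4% of all genes), with a median difference of -0.44 over members and -0.04 over all genes. By role, 14 large subunit genes were lower and 3 higher, and 12 small subunit genes were lower and 2 higher. The other lower genes were 3 of TIM23 and its motor, 2 small TIM chaperones, 2 of the TOM channel and small subunits, 1 TOM receptor and TOMM34. The count of lower genes depends on single libraries: it was 20, 21 or 25 without AML3 vehicle replicate 1, 2 or 3, and 24, 30 or 27 without AML2 vehicle replicate 1, 2 or 3. Scaling by library totals alone gave 21. The shares of all genes lower in these fits are not given here.

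TOMM34 differed the most, with 50.4, 31.1 and 22.7 CPM in AML3 and 63.2, 125 and 111 CPM in AML2, a difference of -1.45 (SE 0.25, adjusted p = 8.76e-05). Its values were spread widely in both lines but did not overlap. MRPL14 had 103, 100.4 and 85.1 CPM in AML3 and 282, 224 and 203 CPM in AML2 (-1.29 (SE 0.31, adjusted p = 0.00343)), MRPS31 17.6, 16.4 and 17 CPM and 50.6, 36.9 and 34.5 CPM (-1.25 (SE 0.29, adjusted p = 0.00187)). MRPL2 and MRPL47 were lower in AML3 by -1.18 (SE 0.23, adjusted p = 0.000309) and -1.14 (SE 0.24, adjusted p = 0.000865). Among the genes higher in AML3, MRPS33 had 216, 211 and 160.2 CPM in AML3 and 91.8, 90.6 and 69 CPM in AML2 (1.22 (SE 0.33, adjusted p = 0.00794)), and MRPL24 had 216, 244 and 147 CPM and 119.7, 81.9 and 101 CPM (1.02 (SE 0.26, adjusted p = 0.00408)). MRPS30, whose protein sits in the large subunit, was higher by 0.87 (SE 0.21, adjusted p = 0.00266). MRPL20 was higher by 0.95 (SE 0.24, adjusted p = 0.00497), and by 0.76 (adjusted p = 0.0536) without AML2 vehicle replicate 2. MRPL49 was higher by 0.72 (SE 0.26, adjusted p = 0.0472), and that call was lost without any 1 of the 6 vehicle libraries (0.56 to 0.84).

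Other nuclear genes of mitochondrial protein synthesis and import were read from lists chosen by function, to be set beside the 24.1% and 26.1% of all genes lower with JQ1 and OTX015 in AML3 and the 17.4% and 19.9% lower in AML2. The shares of all genes higher were 26.8% and 28.8% in AML3 and 17.2% and 20.5% in AML2. Of 5 mitoribosomal proteins under other names, 3 were lower with each drug in AML3 and 2 with each in AML2. They included GADD45GIP1, with -1.55 with JQ1 and -2.02 with OTX015 in AML3, and -1.83 and -1.87 in AML2. Of 9 tested translation factors, 2 were lower and 1 higher with each drug in AML3, near the background, and 5 with JQ1 and 4 with OTX015 were lower in AML2. The elongation factor TUFM changed by -1.39, -1.50, -1.21 and -1.33 in the same order. Of 20 assembly factors, 6 and 7 were lower in AML3, also near the background, with 1 higher each time, and 9 and 9 in AML2. Of 14 tested genes of other import and sorting steps, 8 with JQ1 and 11 with OTX015 were lower in AML3, and 9 and 11 in AML2, with none higher. Among these, PAM16, a regulator of the import motor, changed by -1.57, -1.57, -1.47 and -1.52.

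All 5 matrix folding genes were lower in every comparison, with medians of -1.79 with JQ1 and -2.02 with OTX015 in AML3, and -1.89 and -2.40 in AML2. HSPD1, the matrix chaperonin, changed by -1.83 and -2.02 in AML3 and -2.06 and -2.53 in AML2. Of 7 presequence processing genes, 0 were lower and 2 higher with JQ1 and 1 lower and 1 higher with OTX015 in AML3, and 4 and 3 were lower in AML2. In each list, the genes higher in AML3 were near or under the background of 26.8% with JQ1 and 28.8% with OTX015. PITRM1, which degrades presequences after cleavage, rose by 1.66 with JQ1 and 1.67 with OTX015 in AML3. Of 8 genes of mitochondrial DNA expression, 5 were lower in every comparison, and 1, POLG, the mitochondrial DNA polymerase, was higher in AML3 (1.29 with JQ1 and 1.12 with OTX015). Of 8 tested transcription factors known to act on nuclear mitochondrial genes, 2 with JQ1 and 1 with OTX015 were lower in AML3, with 1 higher each time, and 2 with each drug were lower in AML2 with none higher; list medians ran from -0.20 to -0.09. MYC changed by -1.47 with JQ1 and -1.31 with OTX015 in AML3, and -2.74 and -3.15 in AML2. PPRC1, a coactivator, was the other one lower, and NRF1 the one higher, by 1.32 with JQ1 and 0.94 with OTX015 (adjusted p = 0.00536 and 0.0498).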

How the data were processed

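CAGE tag counts were deposited by the authors as whole-number counts per gene symbol and per promoter, with 1 column per library; both tables were used as deposited, and a table of enhancer counts was not used. Per the labels' protocols, total RNA was extracted with a Qiagen RNeasy kit and libraries followed a published CAGE protocol. STAR and hg38 are named in the submitters' processing notes. Which program clustered starts into promoters, and the settings used, is not given in the sources used here. Most promoter names carry hg19 coordinates, which were printed as given and never converted; a tag is assigned to a gene by the authors' annotation, so neighbouring genes with close starts share tags.

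The genes were matched by symbol. Members and lists were chosen with earlier results of these data known. edgeR 4.0.16 (R 4.3.3, limma 3.58.1) was fitted to all 18 libraries with 1 mean per group, 12 residual degrees of freedom, TMM scaling and filterByExpr, on 10031 genes and, separately, 12867 promoters. Each contrast was tested two-sided with the quasi-likelihood test, p-values were adjusted by Benjamini-Hochberg over all of them, and a call needed an adjusted p under 0.05. SE and 95% intervals come from that fit, and CPM are TMM-scaled. Summed shares are raw tags over all gene tags of a library. Counting error alone makes a level of a few tags imprecise.

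Members were named by a rule: the 5 largest falls and rises per comparison among called genes averaging at least 10 CPM, plus a fixed set of core subunits; other genes named were chosen after their values were seen. Same-numbered JQ1 and OTX015 libraries deviated together from their group means (correlations of 0.121 to 0.347 in AML2 and 0.351 to 0.623 in AML3), so their numbers were taken to pair them, although 3 of 6 libraries in each line were closest to their own number. A fit with the replicate number as a block still called 0 genes among the members between the 2 drugs. Promoters were matched to members of at least 50 tags as runs of at most 30 neighbours spanning at most 200000 bases. Alternatives were other scalings, no filter, the replicate block, DESeq2 1.42.0, only the groups compared, replicates 1 and 2 alone, and leaving out each library. The fit was tested on simulated counts. Figures were drawn with Python 3.11.15, pandas 2.3.3 and matplotlib 3.10.9.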

Additional observations from a re-analysis of the deposited data

Results flagged for a closer look

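The effect of a drug differed between the lines by a test of the difference itself in 2 members, MRPS27 and TIMM22, in promoters of these genes and in 1 promoter of MRPS5 (log2 change in AML3 minus that in AML2). MRPS27 differed by 1.33 for JQ1 and by 1.09 for OTX015, and its downstream promoter by 4.08 for JQ1 and 4.09 for OTX015. TIMM22 differed by -1.24 for OTX015 and its promoter by -1.21. The upstream promoter of MRPS5, a small subunit gene, differed by 2.07 for JQ1, where the change was -0.46 in AML3 and -2.52 in AML2. These are few among the 101 genes and 131 promoters tested.

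The MRPS5 difference missed the threshold under 11 of the other settings, at 1.72 to 2.15 with adjusted p from 0.0563 to 0.132. The TIMM22 promoter difference missed it under 14, at -1.31 to -0.97 with adjusted p from 0.0512 to 0.165.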

How the results depend on the processing

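No value of a named gene or promoter that was called in the main fit or under the other setting changed sign between them. Changes of sign between 2 values that were not called were not counted. Members called lower numbered 69 with JQ1 and 73 with OTX015 in AML2 and 58 and 64 in AML3 when libraries were scaled by their totals alone. In the comparison of the lines with vehicle, 21 members were then lower in AML3. Under that scaling 2 members were higher with OTX015 in AML2 and 0 had a lower OTX015 effect in AML3. Without the filter on low counts 0 members had a higher OTX015 effect in AML3; DESeq2 gave 0 lower and 0 higher, and a fit of only the groups compared gave 2 lower and 0 higher, with 2 members higher with OTX015 in AML2. With replicates 1 and 2 alone, 2 members were higher with JQ1 in AML2, and the effect in AML3 was lower for 2 and higher for 5 members with JQ1 and lower for 2 with OTX015. As a percent of the TMM-scaled library, the summed members came to 0.461% with OTX015 and 1.12% with vehicle in AML3, and to 0.740% with JQ1, 0.688% with OTX015 and 1.495% with vehicle in AML2. The cause of these shifts was not tested. No share of all genes under the same setting is set beside any count of this section. A change in a count of members therefore cannot be told from a change over all genes.

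Leaving out 1 library at a time, the members called lower numbered 67 to 76 (JQ1) or 76 to 84 (OTX015) in AML3, 61 to 75 or 71 to 83 in AML2, and 54 to 68 in all 4 comparisons, a count added after the data were seen. Members higher numbered 2 to 2 with either drug in AML3; in AML2 they numbered 1 to 1 (JQ1) and 0 to 2 (OTX015). Between lines with vehicle, 20 to 30 were lower and 3 to 4 higher. Differences in drug effect numbered 0 to 1 lower and 0 to 2 higher for each drug, and OTX015 against JQ1 stayed at 0 in all. Promoters lower numbered 87 to 102 (JQ1) or 92 to 101 (OTX015) in AML3, and 77 to 96 or 86 to 98 in AML2; promoters higher numbered 5 to 6, 4 to 5, 2 to 3 and 2 to 4 in the same order.

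Same-numbered drug and vehicle libraries did not all deviate together (correlations from -0.0531 to 0.164), so a replicate block has no basis in the labels there. For OTX015 in AML3 each of the 6 libraries was closest to its own number in the other group, a hint from the data, and in the other comparisons with vehicle 2 to 5 of 6 were. With the block, 82 and 90 members were lower with JQ1 and OTX015 in AML3, 84 and 88 in AML2, and 44 in AML3 against AML2 with vehicle; 2 were higher with OTX015 in AML2. The effect in AML3 was lower for 2 and higher for 3 members with JQ1, and lower for 3 with OTX015. Among 240 values of named genes and promoters in the drug comparisons, DESeq2 lost 9 calls, totals alone 37 and the removal of 1 library 97 over all such fits.

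As groups, drug libraries are shallower than vehicle libraries, and levels under about 10 CPM rest on few tags. Single libraries overlap in depth: AML2 JQ1 replicate 2 held 1290954 tags in genes and AML2 vehicle replicate 3 held 957036.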
